A study of Mus musculus with 8 samples.

Results

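The nuclear factor I (NFI) family of the mouse comprises 4 transcription factor genes, Nfia, Nfib, Nfic and Nfix, and all of them were measured on the arrays of this series. Members were taken by gene name, which gave 12 of the 39429 probes and 4 of the 30139 names on the array. Nfib had 5 probes, Nfic 3, and Nfia and Nfix 2 each. For each gene the probe that was brightest over all 8 arrays is called the main probe. The 4 main probes passed the filter on dim signals, and 11 of the 12 probes did so.

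NFI proteins bind DNA as homodimers or heterodimers through a conserved amino-terminal domain, and they activate or repress transcription depending on the promoter and the cell type. They were first described through their part in adenovirus replication and are now known for timing the switch from proliferation to differentiation in brain, lung, tooth, muscle and skin. In mouse skin, Nfib and Nfix are known for their part in hair follicle stem cells. MicroRNAs pair with messenger RNAs mainly through a short stretch near their 5′ end, the seed, and lower the level or the translation of the paired transcript.

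RNA of mSCC-20 cells, a line of the FVB/N strain that the labels place in cutaneous squamous cell carcinoma, was hybridised to single-colour Agilent expression arrays. Cells were transfected with miR_193b (2 arrays, amount label 0.2 µg), with miR_365a (2 arrays, 0.6 µg), or with the control miR_NC (2 arrays with 0.2 µg and 2 with 0.6 µg). What the amount refers to is not given in the labels, so the arrays are called the 0.2 set and the 0.6 set here, and each microRNA is set against the miR_NC arrays of its own set. Replicates 1 and 2 of miR_NC belong to the 0.2 set and replicates 3 and 4 to the 0.6 set. The whole 0.6 set lay on 1 slide, slide 4, whereas the 0.2 set was spread over 3 slides, with replicate 1 of miR_193b and of miR_NC on slide 1, miR_NC replicate 2 on slide 2 and miR_193b replicate 2 on slide 3. All groups are the same line, and the labels do not say that replicates were separate cultures, so p-values cover the spread among these particular arrays and nothing wider.

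The mature strands of the microRNAs that were transfected are shown with the seed, bases 2 to 8, in capitals, because the comparisons rest on them. They are RefSeq sequences on GRCm38.p6, written 5′ to 3′. The strand of mmu-miR-193b-3p lies at chr16:13449570-13449591 on the plus strand. The strand of mmu-miR-365-3p is encoded at chr16:13453895-13453916 and at chr11:79726467-79726488, both on the plus strand. The seeds differ, and the labels name the microRNAs without giving the sequence of the transfected molecule.
mmu-miR-193b-3p: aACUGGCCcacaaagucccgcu
mmu-miR-365-3p: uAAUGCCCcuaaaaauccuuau

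Of the array probes, 3 are printed, all in lower case and 5′ to 3′. The first is the Nfib probe that lies far from the other 4 on the chromosome and had the smallest change (mm9, chr4:82144224-82144283, minus strand). The second is the main Nfix probe, as an example of a member that was not called (mm9, chr8:87250416-87250475, minus strand). The third is the Nfia probe that was well above background on no array (mm9, chr4:97680930-97680989, plus strand). Positions are those of the files. No mm9 gene annotation was used, so the exon or untranslated region under a probe is not stated.
Nfib A_55_P2086687: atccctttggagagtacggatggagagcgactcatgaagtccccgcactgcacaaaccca
Nfix A_55_P2085574: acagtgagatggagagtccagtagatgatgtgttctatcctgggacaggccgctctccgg
Nfia A_66_P115098: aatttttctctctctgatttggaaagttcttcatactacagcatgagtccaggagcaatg

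Of the 43020 gene spots on each array, the share well above background was 58.9% to 62.1% on arrays labelled 0.6 and 51.4% to 54.6% on arrays labelled 0.2. The median local background was 26 to 30 intensity units on the first and 55 to 60.5 on the second. All 9 epithelial markers examined, the keratinocyte keratins Krt5 and Krt14 among them, were well above background on all 8 arrays. Krt8, Krt18, Epcam and Cdh1 in this list are not particular to keratinocytes. Their summed level, in multiples of each array's 75th percentile, was 805 and 824 in miR_193b cells against 651 and 668 in miR_NC cells, and 687 and 816 in miR_365a cells against 680 and 745 in miR_NC cells. These sums weigh the brightest genes most. After miR_365a the median log2 difference of the 9 markers was -0.41 against 0.02 over all tested genes, with Itga6 called lower (-0.80, limma adjusted p = 0.0170) and Krt8 called higher (0.61, adjusted p = 0.0384). Trp63 (-0.83), Cdh1 (-0.56), Itgb4 (-0.55) and Epcam (-0.41) were not called, and neither were Krt18 (0.22), Krt14 (0.10) and Krt5 (0.01). Of the 9 markers, 5 lay below 0. After miR_193b the median was 0.28 against 0.05, and 0 of 9 were called, with 2 at an unadjusted p under 0.05. Of the markers of other cells, 1 of 6 fibroblast, 3 of 6 leukocyte, 2 of 5 endothelial and 2 of 6 melanocyte genes were well above background on all 8 arrays. These were Pdgfra (fibroblasts), Cd3e, Cd68 and Itgam (leukocytes), Kdr and Esam (endothelium) and Mitf and Mlana (melanocytes). Dcn, Lum and Col3a1 (fibroblasts), Lyz2 (myeloid cells), Cdh5 and Tek (endothelium) and Dct and Tyrp1 (melanocytes) were so on none. Esam was called higher after miR_193b (0.89, limma adjusted p = 0.0251) and Mitf lower after miR_365a (-0.68, adjusted p = 0.0269). No other gene of these other lists was called. The part of these lists in the results was not tested. In bulk RNA, fewer cells with a transcript and less of it per cell cannot be told apart.

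Levels are log2 processed signals minus the array's 75th percentile, so a level of 0 is a signal equal to that percentile. Levels of different probes are not set against each other, because probes differ in brightness for the same amount of RNA. After miR_365a, Nfib fell at an adjusted p under 0.05 (limma, Benjamini-Hochberg over 17856 genes tested), where 15.8% of all tested genes were called and 7.99% were called lower. Nfic and Nfix were not called. Nfia passed the filter only through the miR_NC arrays, on which it is higher, so it is given as a bound and not counted as a call. After miR_193b, 0 of the other 3 members were called, where 2.86% of all tested genes were, and none of these 3 had an unadjusted limma p under 0.05, where 21.3% of all tested genes had one. The effects of the microRNAs, each measured in its own set, differed for Nfib and were not called different for Nfic and Nfix. In that contrast 3.47% of all tested genes were called and 2.38% were called lower.

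**Figure D1:**
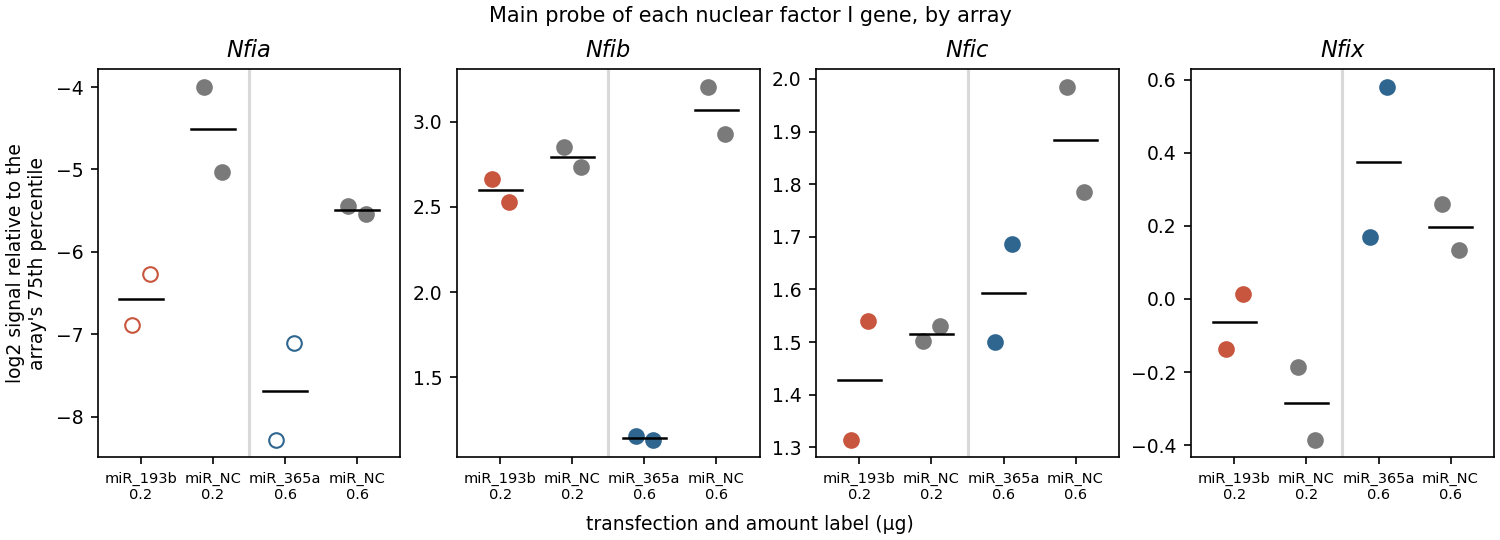
Level of the main probe of each NFI gene on each of the 8 arrays (points) with the group mean (lines), as log2 signal relative to the array's 75th percentile, by transfection and amount label. Open points were not well above background. Nfib lies at 1.14 and 1.16 after miR_365a, below the other 6 arrays, and Nfia is open on all miR_193b and miR_365a arrays.

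Nfib encodes NFIB, which is needed for lung and brain maturation in mice and is amplified in small cell lung carcinoma. It fell 3.78-fold after miR_365a and was not called after miR_193b. The main probe gave processed signals of 4050.4 and 3117 intensity units in miR_365a cells, against 15052 and 10686 units in miR_NC cells of the 0.6 set. As levels these were 1.16 and 1.14 in miR_365a cells against 3.20 and 2.93 in miR_NC cells. Both miR_365a arrays were low and lay close together, and the groups did not overlap. The log2 difference was -1.92 ± 0.14 (SE, n = 2 and 2, limma adjusted p = 0.00245, 95% interval -2.25 to -1.59). By p-value Nfib stood at rank 36 of the 17856 genes, and by size it was the 95th most lowered. Because all 4 arrays of this comparison shared slide 4, the slide does not enter the log2 difference. The SE and p-value use a spread shared over all 8 arrays, those on other slides included.

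In miR_193b cells the main Nfib probe had levels of 2.66 and 2.53, against 2.85 and 2.73 in miR_NC cells of the 0.2 set. Both miR_193b arrays were below both miR_NC arrays, by a small margin. The log2 difference of -0.19 ± 0.14 was not called (limma adjusted p = 0.444), and its 95% interval ran from -0.52 to 0.14. Within slide 1 the difference was -0.19, and across slides 2 and 3 it was -0.20.

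The miR_365a effect on Nfib minus the miR_193b effect was -1.72 ± 0.19 on the log2 scale, which is 3.31-fold (limma adjusted p = 0.0151, 95% interval -2.19 to -1.26). The comparisons share no miR_NC array. Each microRNA was used with a single amount label, so microRNA, amount label, slide and scan cannot be told apart in this contrast. With slide as a fixed block the value was -1.73 and the call was lost (adjusted p = 0.0649), and it was also lost without a filter on dim probes (adjusted p = 0.0677). Leaving out 1 array kept the value between -1.86 and -1.59, and 5 of the 8 omissions ended the call (miR_193b replicate 1, either miR_365a replicate, miR_NC replicate 3 or 4). Over the 17 alternatives for this contrast, adjusted p lay between 0.00226 and 0.0709.

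In the order of group means, miR_NC of the 0.6 set stood highest for Nfib at 3.06 ± 0.20, then miR_NC of the 0.2 set at 2.79 ± 0.09, miR_193b at 2.60 ± 0.09 and miR_365a at 1.15 ± 0.02 (SD, n = 2 each). The first pair differed by 0.27 ± 0.14 (SE, limma adjusted p = 0.208), and neither that pair nor miR_193b and its miR_NC arrays were called different. The miR_365a arrays lay 1.37 log2 units or more below every other array. The amount label, slide and scan of the miR_NC sets cannot be told apart.

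All 5 Nfib probes were called lower after miR_365a in the fit over 23284 probes, where 15.7% of probes were called and 8.02% were called lower. For all 5 both miR_365a arrays lay below both miR_NC arrays, which held for 28% of all tested probes. The probes differed in size of change. A_55_P2143431 had levels of -0.68 and -0.63 in miR_365a cells against 1.78 and 1.55 in miR_NC cells, a log2 difference of -2.32 ± 0.14 (SE, adjusted p = 0.00249). A_55_P2086692 had -2.53 and -2.44 in miR_365a cells against -0.13 and -0.33 in miR_NC cells, a fall of 4.77-fold (-2.26 ± 0.15, adjusted p = 0.00249).

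Near background, the Nfib probe A_66_P135165 had levels of -6.79 and -6.11 in miR_365a cells against -3.83 and -3.70 in miR_NC cells. Only 1 of the 2 miR_365a arrays was well above background for it. The log2 difference was -2.68 ± 0.31 (SE, limma adjusted p = 0.00591), but it was -1.09 with normexp background correction and -0.96 in the deposited log2 values, both called. So the size for this probe depends on how background was treated, while its direction was the same.

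The fifth Nfib probe, A_55_P2086687, had the smallest change. It had levels of -3.50 and -3.29 in miR_365a cells, against -2.59 and -2.29 in miR_NC cells. The groups did not overlap, and the difference of -0.95 ± 0.25 (SE), or 1.94-fold, stood just inside the threshold (limma adjusted p = 0.0498). The call was lost in 6 of 12 alternatives, in which adjusted p ranged from 0.0248 to 0.208. These 6 left out either miR_193b array, either miR_365a array, or miR_NC replicate 3 or 4, with differences from -1.11 to -0.80.

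On the minus strand of chromosome 4 this probe lies upstream of the others in the direction of transcription. The main probe is at 81941988 to 81942047 (mm9), 202236 bases away, and the other 3 lie between 81936100 and 81938297. For the 3 of these 4 that were well above background on all 8 arrays, the effect of miR_365a minus its effect on the upstream probe was -1.37 to -0.97 log2 units, and it was -1.50 to -1.14 with normexp and -1.50 to -1.24 in the deposited values. For A_66_P135165 it was -1.73, but -0.34 with normexp and -0.28 in the deposited values. After miR_193b the corresponding differences for all 4 were 0.17 to 0.52 log2 units. These differences between probes were not tested. Files name transcript NM_008687 for the upstream probe and NM_001113209 for the other 4. Across the 8 arrays the Nfib probes correlated with each other at r of 0.834 to 0.990, over points that share arrays and sets.

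After miR_193b, 0 of 5 Nfib probes were called, where 2.31% of all probes were. Their differences ran from -0.37 (A_55_P2086687) to 0.15 (A_66_P135165), and the groups overlapped for 4 of the 5, while they did not overlap for 51.5% of all tested probes. The effects of the microRNAs differed at an adjusted p under 0.05 for the main probe and 3 of the other Nfib probes, with differences of -2.84 to -1.72, where 3.28% of probes were called and 2.22% were called lower. For the upstream probe this difference was -0.59 ± 0.35 (SE, limma adjusted p = 0.410).

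**Figure D2:**
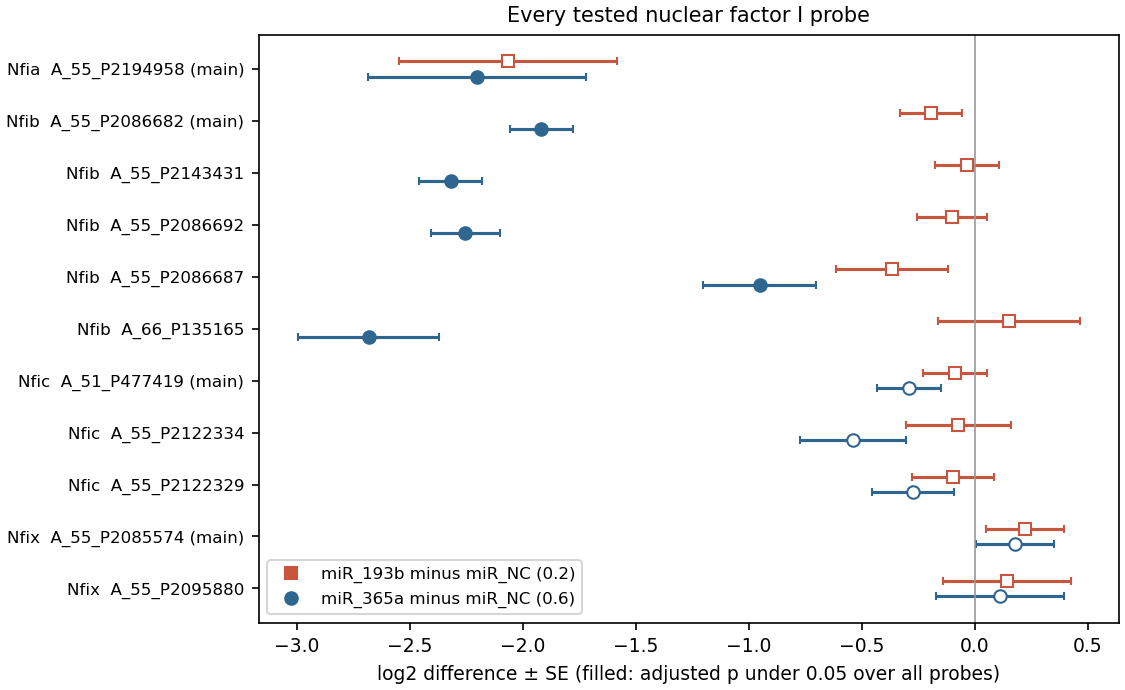
Log2 difference from miR_NC of the same set (x axis, ± SE) for the 11 tested NFI probes (y axis), squares for miR_193b and circles for miR_365a, filled where adjusted p over all probes was under 0.05. The 5 Nfib circles lie between -2.68 and -0.95 and are filled, and the filled Nfia circle at -2.20 rests on miR_365a arrays not well above background.

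Nfia encodes NFIA, known for starting gliogenesis in the mouse spinal cord. It was the member whose main probe was well above background in miR_NC cells alone. The main probe, A_55_P2194958 (mm9, chromosome 4, 97781622 to 97781681, plus strand), had processed signals of 5.84 and 10.3 intensity units in miR_365a cells, against 37.6 and 30.2 in miR_NC cells of the 0.6 set. It had 9.97 and 14.5 units in miR_193b cells, against 102 and 42.5 in miR_NC cells of the 0.2 set. The probe was well above background on all 4 miR_NC arrays, through which it passed the filter, and on none of the 4 microRNA arrays. The groups did not overlap in either set, which follows in part from how the probe passed the filter, so no result is drawn from it. Among all tested probes, the groups did not overlap for 51.5% after miR_193b. After miR_365a they lay apart, with miR_365a lower, for 28%.

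The microRNA arrays give only a bound for Nfia. On the processed signals this bound was 2.14-fold lower after miR_365a and 1.94-fold lower after miR_193b. It holds for that background treatment only, because normexp and the deposited log2 values gave smaller differences. It also leaves out the spread of the miR_NC arrays, and its floor is not a detection limit of this probe. The bounds set the mean miR_NC level against, for each microRNA array, the higher of the probe's own level and the lowest level of any gene spot well above background. The adjusted p of the fit, 0.0306 after miR_365a and 0.0776 after miR_193b (limma), used levels not well above background on the microRNA arrays, and no call is drawn from either. Mean levels in miR_NC cells were -5.49 ± 0.07 in the 0.6 set and -4.51 ± 0.73 in the 0.2 set (SD, n = 2 each).

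The fitted size for Nfia depended on the background treatment. After miR_365a it was -2.20 as reported, -0.56 with normexp and -0.33 in the deposited log2 values, and after miR_193b it was -2.07, -0.38 and -0.57 in the same order. These values lay below 0 in all 6 cases, as did those within slide 1 (-2.89) and across slides 2 and 3 (-1.25) after miR_193b. They come from the same arrays, and the probe passed the filter through the miR_NC arrays alone, so their shared sign is no separate result. Whether the microRNAs differed in their effect on Nfia cannot be read from values that were not well above background.

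The miR_NC sets differed for Nfia by -0.98 ± 0.48 (0.6 minus 0.2, SE, limma adjusted p = 0.203), and the microRNA groups have no measured place in the order of levels. The second Nfia probe, A_66_P115098, was well above background on no array and was not tested.

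Nfic encodes NFIC, known for tooth root formation in mice. It was not called in either comparison. The main probe, A_51_P477419 (mm9, chromosome 10, 80859057 to 80859116, minus strand), had levels of 1.50 and 1.69 in miR_365a cells against 1.98 and 1.78 in miR_NC cells. The groups did not overlap, with miR_365a lower, as for 28% of all tested probes, but the gap was narrow. The difference of -0.29 ± 0.14 was not called (SE, limma adjusted p = 0.223, 95% interval -0.63 to 0.05). Levels in miR_193b cells were 1.31 and 1.54 against 1.50 and 1.53 in miR_NC cells, so these groups overlapped. Here the difference was -0.09 ± 0.14 (limma adjusted p = 0.745, 95% interval -0.43 to 0.25), being -0.19 within slide 1 and 0.01 across slides 2 and 3.

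The other 2 Nfic probes had differences of -0.54 ± 0.23 (A_55_P2122334, limma adjusted p = 0.175) and -0.27 ± 0.18 (A_55_P2122329, adjusted p = 0.373) after miR_365a. After miR_193b they had -0.07 and -0.10. None of the 3 Nfic probes was called, and all 6 estimates lay below 0. The miR_NC arrays of the 0.6 set stood highest, and miR_NC of the 0.6 set minus the 0.2 set was 0.37 ± 0.14 (SE, limma adjusted p = 0.125). The group means of miR_365a, miR_NC of the 0.2 set and miR_193b were 1.59 ± 0.13, 1.52 ± 0.02 and 1.43 ± 0.16 (SD, n = 2 each), and neighbours in that order differed by less than the larger SD of the pair.

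Nfix encodes NFIX, known in mice for brain and muscle development and for hair follicle stem cell upkeep. It was not called in either comparison, and both of its estimates lay above 0. The main probe had levels of 0.17 and 0.58 in miR_365a cells against 0.26 and 0.13 in miR_NC cells, and these groups overlapped. The difference was 0.18 ± 0.17 (SE, limma adjusted p = 0.565, 95% interval -0.24 to 0.59). In miR_193b cells the levels were -0.14 and 0.01 against -0.19 and -0.38 in miR_NC cells. These groups did not overlap, as was so for 51.5% of all tested probes. The miR_193b difference was 0.22 ± 0.17 (limma adjusted p = 0.481, 95% interval -0.19 to 0.64), being 0.05 within slide 1 and 0.40 across slides 2 and 3.

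The second Nfix probe, A_55_P2095880 (mm9, chromosome 8, 87228759 to 87228818, minus strand), had differences of 0.11 after miR_365a and 0.14 after miR_193b, neither called. In order, the group means of the main Nfix probe were 0.37 ± 0.29 for miR_365a, 0.20 ± 0.09 for miR_NC of the 0.6 set, -0.06 ± 0.11 for miR_193b and -0.29 ± 0.14 for miR_NC of the 0.2 set (SD, n = 2 each). Both means of the 0.6 set lay above those of the 0.2 set, and the miR_NC sets differed by 0.48 ± 0.17 (0.6 minus 0.2, SE, limma adjusted p = 0.106). In that contrast 0 of the 4 genes were called, where 15.5% of all tested genes were. Nfic and Nfix had an unadjusted limma p under 0.05 in it (0.0385 for Nfic and 0.0292 for Nfix), as did 34.6% of all tested genes.

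For Nfic and Nfix the miR_365a effect minus the miR_193b effect was -0.20 ± 0.20 and -0.05 ± 0.24 (SE, limma adjusted p = 0.616 and 0.937). Their 95% intervals, -0.69 to 0.28 for Nfic and -0.63 to 0.54 for Nfix, bound any difference between the microRNAs only loosely. With 2 arrays per group, the number of arrays limits the precision.

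**Figure D3:**
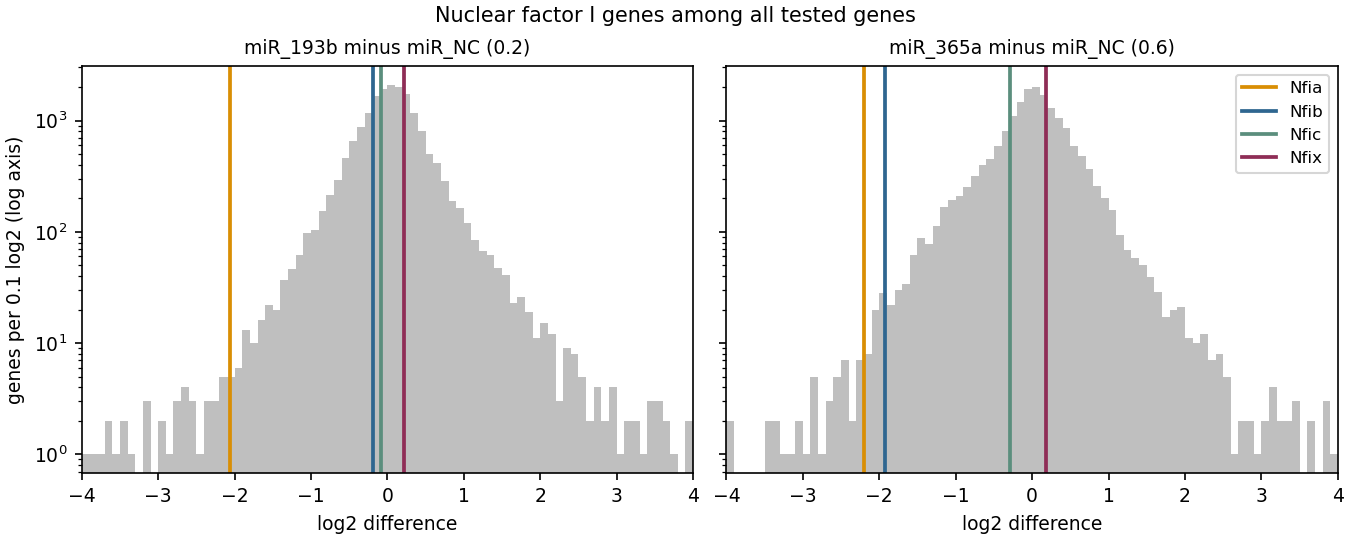
Number of tested genes (y axis, log scale) by log2 difference from miR_NC of the same set (x axis, bins of 0.1, values from -4 to 4 shown), for miR_193b and miR_365a, with the 4 NFI genes as vertical lines. Nfib lies in the low tail after miR_365a at -1.92. The Nfia lines at -2.20 and -2.07 rest on microRNA arrays not well above background.

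As genes of the wider NFI pathway, 24 genes reported elsewhere as regulated by NFI proteins and 11 factors reported to act with them were counted. Of the regulated genes 13 of 24 passed the filter. After miR_365a, 3 of these fell, 1 rose and 9 were not called, where 7.99% of all tested genes fell and 7.77% rose, and their median log2 difference was -0.22 against 0.02 over all tested genes. After miR_193b, 0 of 13 were called and 3 had an unadjusted limma p under 0.05, as did 21.3% of all tested genes, with a median of 0.06 against 0.05 over all tested genes. Of the partner factors 8 of 11 passed the filter, and 0 were called after either microRNA. Of these partner factors 2 had an unadjusted p under 0.05 after miR_365a, as did 31.2% of all tested genes, and 0 after miR_193b, with medians of -0.23 and -0.10.

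The called members were Ccnd1, Klf4, Ezh2 and Slc2a4. Ccnd1, encoding the G1 cyclin D1, fell 4.55-fold after miR_365a (-2.19 ± 0.21, SE, limma adjusted p = 0.00415). Klf4, a transcription factor of epidermal barrier formation, fell 1.88-fold (-0.91 ± 0.16, adjusted p = 0.0157), and 4 of 18 alternatives ended that call. Ezh2, the histone methyltransferase of Polycomb repressive complex 2, which NFIB is reported to repress in mouse cortex, fell 1.62-fold (-0.70 ± 0.16, adjusted p = 0.0343). That call was lost in 7 of 18 alternatives.

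Slc2a4, encoding the insulin-responsive glucose transporter GLUT4, whose promoter is reported to be repressed through NFI in mouse fat cells, rose 2.24-fold after miR_365a (1.16 ± 0.28, SE, limma adjusted p = 0.0384). This call was lost in 10 of 18 alternatives, and without miR_NC replicate 3 the difference was 0.72. After miR_193b, Slc2a4 had a difference of 1.36 ± 0.28 (adjusted p = 0.0596) that was not called. The list was chosen with results of these data known, so its count of 4 in 13 stands beside the 15.8% of all tested genes as a description.

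**Figure D4:**
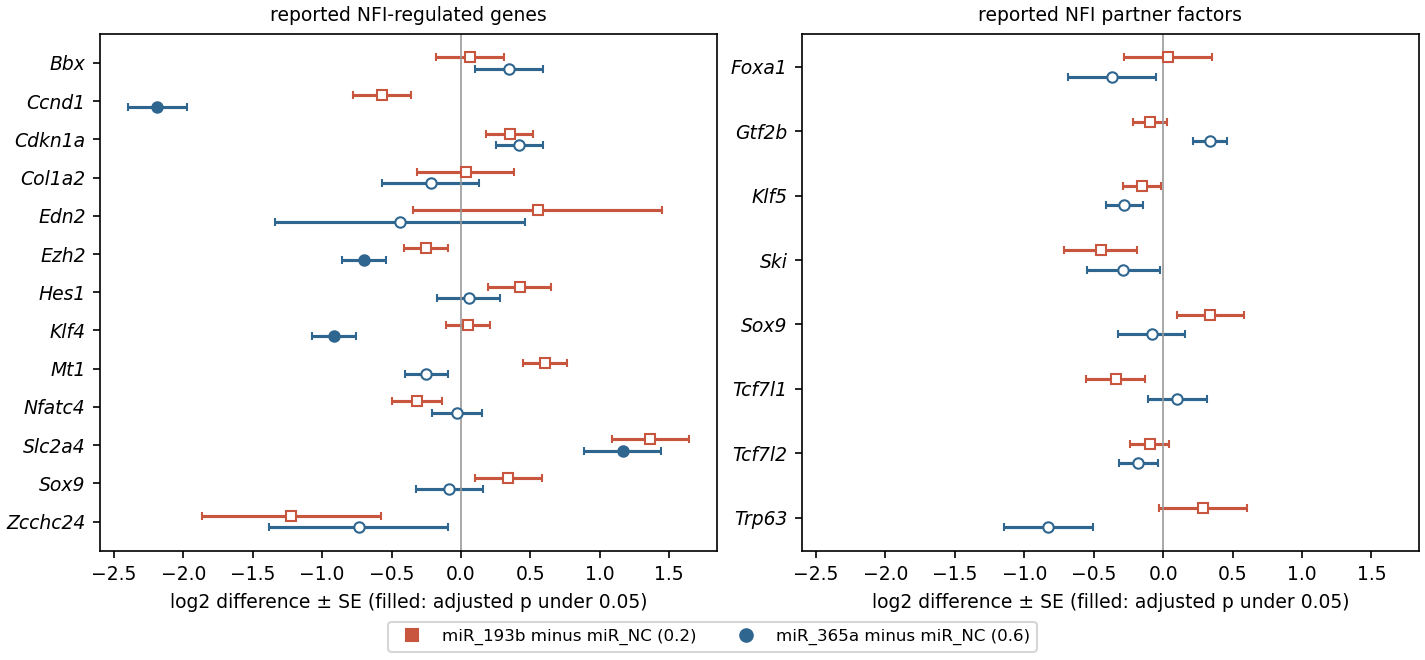
Log2 difference from miR_NC of the same set (x axis, ± SE) for the 13 tested genes reported as NFI-regulated (left) and the 8 tested reported NFI partner factors (right), squares for miR_193b and circles for miR_365a, filled where adjusted p over all tested genes was under 0.05. Of the left panel 4 circles are filled, Ccnd1 at -2.19 furthest from 0, and 0 squares; the right panel has 0 filled symbols.

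Over the 8 arrays, Nfia and Nfib had levels that correlated at r = 0.78, and the other pairs of members ranged from -0.54 (Nfib and Nfix) to 0.55 (Nfic and Nfix). These points share arrays and sets and describe the arrays only, and those of Nfia include 4 arrays not well above background. Among 14575 other genes well above background on all 8 arrays, the levels most like Nfib were those of Ttll4 (r = 0.993), Cbfb (0.991), Purb (0.989), Opa3 (0.986) and Gxylt1 (0.986). Ttll4 encodes a tubulin polyglutamylase, Cbfb the partner subunit of RUNX factors, Purb a single-stranded nucleic acid binding protein, Opa3 a mitochondrial membrane protein and Gxylt1 a xylosyltransferase that acts on Notch.

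All 5 were called lower after miR_365a, as were 7.99% of all tested genes. The correlation used the arrays of that comparison, so these calls are given as a description. The log2 differences were -1.08 for Ttll4, -1.94 for Cbfb, -1.93 for Purb, -1.72 for Opa3 and -1.28 for Gxylt1, and the calls held in all 18 alternatives run for each. A second Gxylt1 probe stayed uncalled at 0.08, and with the mean of both probes Gxylt1 had -0.60. After miR_193b none of the 5 was called, with differences of -0.29 to -0.19.

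For Nfia the most alike were the unnamed probe A_55_P2145136 (r = 0.977), Sergef (0.974), Spaca6 (0.971), Gli3 (0.967) and Camk2n2 (0.961). The Nfia probe was not well above background on any microRNA array, so these correlations rest partly on levels that were not measured. Gli3 encodes a transcription factor of the Hedgehog pathway. Camk2n2, an inhibitor of CaM kinase II, was called lower after miR_365a (-1.09) and after miR_193b (-1.08), and so was A_55_P2145136 (-1.59 and -1.13). Here, and for Nfic and Nfix below, the genes were chosen by correlation over the arrays of both comparisons. Their calls are therefore given as a description. Among all tested genes, 15.8% were called after miR_365a and 2.86% after miR_193b. Gli3 was called lower after miR_365a (-0.72, limma adjusted p = 0.0324) and not after miR_193b, and Sergef and Spaca6 were called after neither. For Nfic they were Slc35c2 (0.991), Bcl11b (0.975), Nudt14 (0.971), the array identifier NAP063041-1 (0.968) and Shf (0.955). For Nfix they were Hspbp1 (0.976), Gltp (0.975), Rab11fip1 (0.959), Foxl2 (0.958) and Rab25 (0.955). Of the genes most like Nfic, only Bcl11b, a zinc finger factor of skin and T cells, was called after miR_365a (-0.83 ± 0.21, SE, limma adjusted p = 0.0485), while its second probe, at -1.15, was not (adjusted p = 0.0748). Of those most like Nfix none was called after either microRNA.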

How the data were processed

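Per the file headers, the deposited intensity of a spot is the processed signal given by Agilent Feature Extraction 10.7.3.1, from which background was subtracted array by array, with no scaling between arrays. The authors also deposited log2 values of these 8 arrays, used as an alternative. Its columns had medians of 7.04 to 7.05 and each correlated best with its own array, and its background correction is not given in the sources used here. The submitters' processing notes name limma.

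Gene spots without outlier flags were kept, put on the log2 scale, set relative to the 75th percentile of their array and averaged per probe. Of the 39429 probes, 27508 were named through an accession, 3544 through a symbol and 404 through a synonym of RefSeq's gene table, and 7973 kept the file's name. The brightest probe over all 8 arrays stood for a gene. To be tested, a probe had to be well above background on the 2 arrays of any of the 4 transfection and amount combinations, which left 17856 genes and 23284 probes. Limma 3.58.1 in R 4.3.3 (lmFit, eBayes) was fitted on all 8 arrays with terms for set, miR_193b and miR_365a, with 4 residual and 2.31 prior degrees of freedom, with Benjamini-Hochberg adjustment over all genes tested, or over all probes tested for single probes. The fit was also run on simulated data with independent noise on each array. That setting does not cover arrays that share a slide, and its outcome is not given here. A call is an adjusted p under 0.05. Tables and figures were made with Python 3.11.15, pandas 2.3.3, numpy 2.4.6 and matplotlib 3.10.9.

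The members, the lists and the rules were chosen with earlier results of these data known. Named genes were every member probe, up to 4 called genes per list and comparison with the smallest p, and the 5 genes most correlated with each member among those well above background on all 8 arrays. Alternatives changed the background correction (normexp, offset 50), the scaling, the source of values, the filter, the probe rule, the arrays fitted, the variance prior and the slide block, and left out each array.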

Additional observations from a re-analysis of the deposited data

Results flagged for a closer look

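The second Nfia probe, A_66_P115098, had 1 array that stood apart from its group. Over the 4 miR_NC arrays, levels were -6.75 for replicate 3 and -7.70, -7.89 and -7.79 for replicates 1, 2 and 4, and the gap of replicate 3 to the nearest of the others was 0.837 of the whole range, above the critical value for 4 arrays. Chance gives such a gap in about 1 in 20 groups drawn from a single distribution. These arrays came from both sets, which differ in amount label and slide, so that rate need not hold here. The probe was well above background on none of the 8 arrays and enters no comparison.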

How the results depend on the processing

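The fall of Nfib after miR_365a kept its direction and call in all 18 alternatives (-2.06 to -1.78, adjusted p from 0.000201 to 0.0242), and Nfib after miR_193b stayed uncalled in 18 alternatives with a test. Nfia, which has no level well above background in microRNA cells, was -0.57 after miR_193b in the deposited log2 values (limma adjusted p = 0.0460). After miR_193b it was -2.89 within slide 1 and -1.25 across slides 2 and 3, and Nfix was 0.049 and 0.40 in these slides. The adjusted p of Nfia after miR_365a was above 0.05 with normexp (-0.56), the deposited values (-0.33), no filter (-2.20) or the mean of probes (-1.45). It was also above 0.05 in 3 omissions, and the range over omitted arrays was -2.79 to -1.62. The Nfib contrast between the microRNAs was not called with no filter (-1.72), slide as a fixed block (-1.73) or 5 omissions (-1.86 to -1.59). Uncalled contrasts changed sign for Nfia in the deposited values (0.25), with slide fixed (0.68) or random (0.0097) and over omissions (-0.72 to 0.45), and for Nfix with slide fixed (0.13) and over omissions (-0.25 to 0.16). Nfic after miR_193b was 0.010 across slides 2 and 3. Values that changed sign when an array was left out were Nfic (-0.20 to 0.025) and the probes A_55_P2143431 (-0.13 to 0.058), A_55_P2086692 (-0.24 to 0.033), A_66_P135165 (-0.18 to 0.48), A_55_P2122334 (-0.28 to 0.14), A_55_P2122329 (-0.24 to 0.044) and A_55_P2095880 (-0.17 to 0.46) after miR_193b, and Nfix (-0.028 to 0.38) and A_55_P2095880 (-0.16 to 0.39) after miR_365a.

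Genes called after miR_193b numbered 510 as reported, 972 with normexp, 844 in the deposited values, 11 with no filter, 872 for genes well above background on all 8 arrays, 314 with the mean of probes, 0 with the 4 arrays of the set alone, 1039 with a trended robust variance, 170 with slide fixed and 9 to 277 with 1 array left out. With normexp the median of all genes after miR_193b was 0.12 against 0.05 as reported, and 29.4% of calls were lower against 40.0%. After miR_365a, 2815 genes were called as reported, 1057 with no filter and 588 to 2831 with 1 array left out. Called NFI-regulated genes after miR_193b numbered 1 with normexp, the deposited values, the filter on all 8 arrays, the trended variance and 2 omissions (range 0 to 1), and after miR_365a they numbered 1 with no filter and 1 to 3 over omissions. The causes were not tested. The filter on all 8 arrays could not give a value for Nfia, and alternatives for list genes, for genes like Nfib and for further probes were added after seeing the data. Signals near background limit Nfia and Nfib probe A_66_P135165.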
